A study of Homo sapiens with 6 samples.

Results

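The genes described here are long RNA genes with no known protein product: 1664 of the 19775 genes tested. They were chosen by symbol and not by any measured value, but with earlier results of these data known. Each has a probe set that the array annotation ties to that gene alone and a symbol of one of 4 kinds, LINC with a number, an antisense ending such as -AS1, SNHG with a number, or MIR with HG, to which MALAT1 and GAS5 were added. They comprised 840 LINC genes, 781 antisense genes, 11 small nucleolar RNA host genes, 30 microRNA host genes, MALAT1 and GAS5. They were read by 2237 probe sets, 1 probe set for 1267 genes, 2 for 287 genes and 3 or more for 110 genes. RefSeq gives 1646 of them as long noncoding RNA, 3 as antisense RNA and 1 as a transcribed pseudogene, and 14 had no entry in the table used. NEAT1, H19 and other matching symbols, 63 in all, occur only on probe sets tied to several genes and were not analysed here.

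Both groups were cultures of MDA-MB-231 cells, a breast cancer line of human origin with mesenchymal features that lacks hormone receptors and HER2 amplification. In the SDC1 siRNA group (3 arrays) the cells were transfected with a small interfering RNA against SDC1, the gene of syndecan-1, a cell surface proteoglycan that carries heparan sulfate chains. In the control siRNA group (3 arrays) they were transfected with a negative control siRNA. All 6 cultures were therefore transfected, and cells with no siRNA were not part of the comparison. The submitters describe the replicates as independent. The sequence and number of the siRNAs and the time after transfection are not given in the sources at hand, and 1 cell line was studied.

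Long noncoding RNAs are transcribed and often spliced like messenger RNAs but are not translated into a known protein. LINC genes lie between coding genes, antisense genes run against a coding gene on the opposite strand, often from a start site close to it, and host genes carry small nucleolar RNAs or microRNAs, which are cut out of the longer transcript. MALAT1 is an abundant RNA of the nuclear speckles and has been studied widely in breast cancer metastasis. GAS5 is a small nucleolar RNA host whose transcript starts with the pyrimidine tract of ribosomal protein messages and is removed by nonsense-mediated decay.

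The deposited values are log2 expression relative to each probe set's median over the 6 arrays. They hold no level of a gene, so every value below is a difference from that median, and a fold change is SDC1 siRNA over control siRNA. SDC1 itself stood at -1.14, -1.16 and -1.43 in the SDC1 siRNA arrays, against 1.13, 1.32 and 1.09 in the control siRNA arrays. Its log2 fold change was -2.42 ± 0.10 (SE, n = 3 arrays each; limma, adjusted p = 2.14e-06), which leaves 18.7% of the control level. The 27 probe sets for poly-A spike-in RNAs, added to the RNA before labelling, parted the arrays in another way. Their mean was between 0.35 and 0.60 in SDC1 siRNA replicates 1 and 2 and control siRNA replicate 1, and between -0.41 and -0.38 in the other arrays. The labels name no batch. A coarse brightness class could be read from the numeric step of the values, and all 5 markers of mesenchymal MDA-MB-231 cells examined (VIM, CD44, KRT18, AXL and CAV1) were in the brightest of the 3 classes. None of the 3 measured blood markers (PTPRC, CD3E and CD14) was in it, but 4 of 5 luminal breast markers and 2 of 3 endothelial markers were. With the class read from all 6 arrays, all 5 mesenchymal markers, 2 of 5 luminal and 1 of 3 endothelial markers were in it. By either reading, the class does not show which genes are expressed.

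Of the 1664 noncoding genes, 173 (10.4%) passed an adjusted p of 0.05 in the limma fit over all genes, against 28.1% of all genes tested. Higher after SDC1 siRNA were 87 of them, where 13% of all genes were higher, and 86 were lower, where 15.1% of all genes were lower. Most of these differences were small: 119 of the 173 were under 0.5 on the log2 scale, and 3 rises and 10 falls reached 2-fold, a size that 1.83% of all genes reached and passed. The median size among the 173 was 0.355, against 0.392 among all genes that passed. The median log2 fold change of the noncoding genes was 0.01, and that of all genes tested 0.0045. The groups of arrays did not overlap for 326 noncoding genes (19.6%), against 41.7% of all genes. At an unadjusted p of 0.05, 302 noncoding genes (18.1%) passed, against 37.6% of all genes. All 173 genes past the threshold had the same sign within both sets of arrays parted by the spike-in RNAs, as did all 5551 genes past it over the whole table.

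The noncoding genes were measured mostly in the dimmer brightness classes, in which fewer genes of any kind passed. In the dimmest class, a log2 level of 2 to 4, 34 of 574 noncoding genes (5.92%) passed, against 5.13% of all genes of that class, and 92 of 1882 other genes (4.89%). In the middle class, 4 to 8, the counts were 97 of 822 noncoding genes (11.8%), against 19.9% of all genes of the class, and 1451 of 6971 other genes (20.8%). In the brightest class, 8 to 16, they were 42 of 268 noncoding genes (15.7%), against 40.7%, and 3835 of 9258 other genes (41.4%). The lower share among noncoding genes was thus seen in the middle and the brightest class and not in the dimmest. The noncoding genes also had a larger median standard error, 0.0864 against 0.0745 over all genes, and a smaller median size of the log2 fold change, 0.0913 against 0.128. The parts of signal, spread and size in these shares were not tested.

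**Figure D1:**
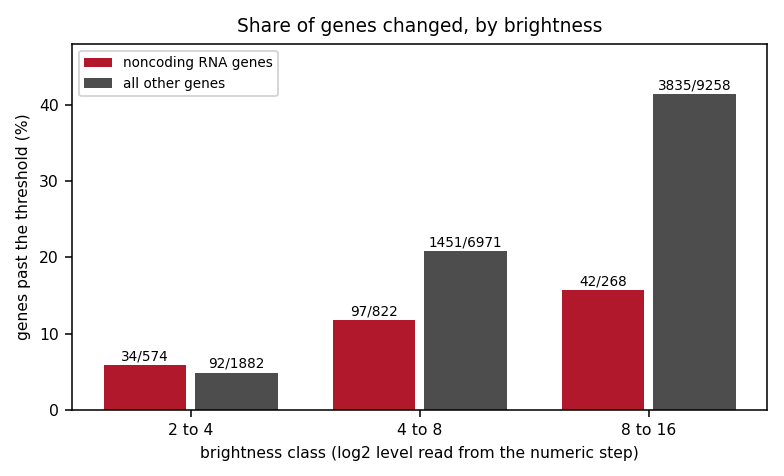
Share of genes past an adjusted p of 0.05 (vertical axis, percent) in each of 3 brightness classes (horizontal axis, log2 level read from the numeric step of the values), for the 1664 noncoding RNA genes and for the 18111 other genes, with counts above the bars. The shares were 5.92% and 4.89% in the dimmest class and 15.7% and 41.4% in the brightest.

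Single probe sets gave a similar picture, with 182 of 2237 (8.14%) past the threshold, against 19.8% of all probe sets tested. They comprised 93 higher and 89 lower probe sets. No gene had probe sets that passed in opposite directions, and 17 genes had 2 or more that passed in the same direction. Among the 50 genes past the threshold with 2 or more probe sets, 35 had all their probe sets on the same side of 0. These counts were not made over all genes, so they do not set the noncoding genes apart. By chromosome, the share of noncoding genes that passed ran between 5% (2 of 40 genes) on chromosome 16 and 21.5% (17 of 79) on chromosome 7. This leaves aside chromosome Y, which held 1 gene. Over all chromosomes 10.4% of the noncoding genes passed, and 28.1% of all genes. The share of all genes on each chromosome was not computed, so neither extreme can be ascribed to noncoding genes.

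MALAT1 rose after SDC1 siRNA. Its value was 0.52, 0.61 and 0.11 in the SDC1 siRNA arrays, against -0.11, -0.52 and -0.51 in the control siRNA arrays. The groups did not overlap, but SDC1 siRNA replicate 3 and control siRNA replicate 1 lay close to each other. The log2 fold change was 0.80 ± 0.15 (SE, n = 3 each; limma, adjusted p = 0.0044), or 1.74-fold. Those 2 arrays are also the ones whose spike-in RNAs differed from the rest of their group. Within the sets of arrays that the spike-in RNAs define, MALAT1 differed by 0.68 and 0.63, a little less than over all arrays. In RNA from whole cultures, fewer cells that express a gene and less of its RNA per cell cannot be told apart, here and in all results below.

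MALAT1 had 12 probe sets, the most of any noncoding gene examined here, and all 12 were higher after SDC1 siRNA. Their log2 fold changes lay between 0.12 and 1.20 with a median of 0.93. In the fit over all probe sets 7 of them passed the threshold, and 9 had groups that did not overlap. Of the 12, 7 end in _x_at, the manufacturer's mark for probe sets that may also bind other transcripts, and they held the smallest value (0.12) and 4 of the 5 probe sets that did not pass. The gene value above rests on the 2 bright probe sets without that mark, whose log2 fold changes were 0.91 and 0.69. The rise was thus seen with probe sets of both kinds.

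**Figure D2:**
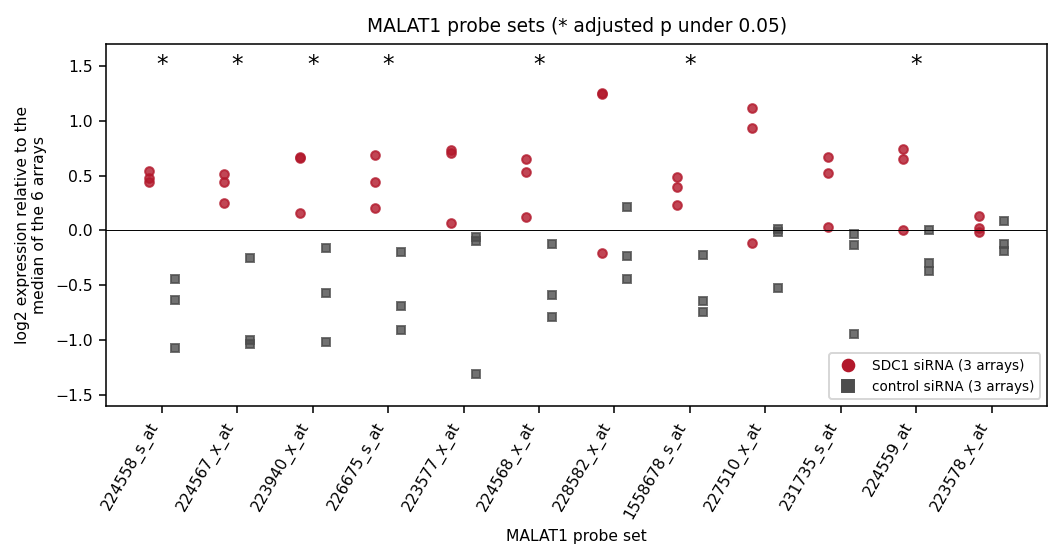
Log2 expression of each MALAT1 probe set relative to its median over the 6 arrays (vertical axis), by probe set (horizontal axis), with 1 point per array for SDC1 siRNA (circles) and control siRNA (squares). All 12 probe sets have a higher mean after SDC1 siRNA, and the 7 with an asterisk passed an adjusted p of 0.05.

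GAS5, read by 1 probe set, did not pass the threshold. It stood at -0.01, -0.14 and 0.10 in the SDC1 siRNA arrays, against 0.01, -0.19 and 0.19 in the control siRNA arrays. The groups overlapped throughout, and the log2 fold change was -0.01 ± 0.10 (SE, n = 3 each; limma, adjusted p = 0.94).

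Among the 11 small nucleolar RNA host genes, 2 rose, 2 fell and 7 did not pass, so that 36.4% passed, against 28.1% of all genes. The small nucleolar RNAs cut from such transcripts guide the chemical modification of ribosomal and other RNAs. They were not measured here. SNHG4 rose most, with 0.38, 0.09 and 0.52 in the SDC1 siRNA arrays, against -0.25, -0.09 and -0.22 in the control siRNA arrays. Its groups did not overlap, and SDC1 siRNA replicate 2 lay nearest to the controls. The log2 fold change of SNHG4 was 0.52 ± 0.11 (SE, n = 3 each; limma, adjusted p = 0.0080).

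SNHG17 fell, with -0.24, -0.21 and -0.12 in the SDC1 siRNA arrays, against 0.20, 0.19 and 0.12 in the control siRNA arrays. This is a log2 fold change of -0.35 ± 0.06 (SE; limma, adjusted p = 0.0030), with no overlap. SNHG32 was lower by less, at -0.26 ± 0.06 (SE; limma, adjusted p = 0.011). SNHG19 rose by 0.28 ± 0.07 (SE; limma, adjusted p = 0.018). That call rests on single arrays: without control siRNA replicate 2, control siRNA replicate 3 or SDC1 siRNA replicate 2 its adjusted p was 0.060, 0.062 or 0.069. The 7 others had log2 fold changes between -0.24 (SNHG28) and 0.17 (SNHG22). Those that passed changed by less than 1.5-fold.

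The proteins that make and handle such transcripts are themselves coded by measured genes, given here as counts beside the 28.1% of all genes that passed. Of 16 measured genes for small nucleolar ribonucleoprotein proteins and their assembly factors, 5 were higher and 2 lower (43.8%), with a median log2 fold change of -0.03. RUVBL2, an ATPase of the assembly complex, was higher by 0.67, FBL, the methyltransferase fibrillarin, by 0.43 and SNU13, which binds the guide RNA, by 0.31, while ZNHIT3, an assembly factor, had -0.44. Of 66 measured ribosomal protein and related pyrimidine-tract genes, 9 were higher and 3 lower (18.2%, median 0.06). They were led by RPL31 (0.83), the translation factor gene EEF1D (0.54), RPL22 (0.45) and RPL7 (-0.39). In the decay pathway that removes many host transcripts, 10 of 16 listed genes were measured, 2 were higher and 6 lower (80%), and the median was -0.23. The 4 with the lowest p were RNPS1 (0.77), RBM8A (-0.34) and EIF4A3 (0.33), all of the exon junction complex, and UPF2 (-0.28), which links it to the decay machinery.

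Further lists concern paraspeckles, the exosome and microRNAs, again beside the 28.1% of all genes that passed. Of 13 measured paraspeckle protein genes, 3 were higher and 1 lower (30.8% passed, near the share of all genes, median 0.08). They were CIRBP (0.61), a cold-inducible RNA-binding protein, PSPC1 (0.38), TAF15 (0.32) and, lower, DAZAP1 (-0.35). Of 17 measured genes of the nuclear exosome and its adaptors, which degrade unstable noncoding RNA, 3 were higher and 4 lower (41.2%, median 0.07). Among them EXOSC2, a subunit of its cap, was at 0.44, the cofactor C1D at -0.49, the adaptor ZCCHC8 at -0.39 and EXOSC1 at -0.24. Of 5 measured microRNA processing genes, 3 were higher and 1 lower (80%, median 0.20). TARBP2 (0.56) and PRKRA (0.35), partners of Dicer, and DROSHA (0.20), which cuts the primary transcript in the nucleus, were higher, and XPO5 (-0.22), which exports the hairpin, was lower.

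The 30 microRNA host genes are transcripts that contain microRNA hairpins, and 27 of them held a mature microRNA in the RefSeq table, 75 mature sequences in all. The array read the long host transcript and not the mature microRNAs. Of the 30 hosts 3 rose, 2 fell and 25 did not pass, so that 16.7% passed, against 28.1% of all genes. The mature microRNAs inside the 5 hosts that passed are printed because they show which small RNAs these transcripts could give rise to. They are given 5′ to 3′ from RefSeq (GRCh38.p14), with the seed, bases 2 to 8, in capitals. MIR646HG, MIR210HG and MIR4307HG, the 3 that rose, hold these:
hsa-miR-646: aAGCAGCUgccucugaggc
hsa-miR-210-3p: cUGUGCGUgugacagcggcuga
hsa-miR-210-5p: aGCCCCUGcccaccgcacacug
hsa-miR-4307: aAUGUUUUuuccuguuucc
MIR924HG and MIR550A3HG, the 2 that fell, hold these:
hsa-miR-924: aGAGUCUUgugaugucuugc
hsa-miR-5583-3p: gAAUAUGGguauauuaguuugg
hsa-miR-5583-5p: aAACUAAUauacccauauucug
hsa-miR-550a-3p: uGUCUUACucccucaggcacau
hsa-miR-550a-3-5p: aGUGCCUGagggaguaagag
These 9 sequences have 9 different seeds, so no seed was shared among the hosts that passed.

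MIR646HG, on chromosome 20, rose most of the microRNA hosts. It stood at 0.65, 0.68 and 0.26 in the SDC1 siRNA arrays, against -0.26, -0.39 and -0.46 in the control siRNA arrays. The groups did not overlap, and the log2 fold change was 0.90 ± 0.12 (SE, n = 3 each; limma, adjusted p = 0.00059), or 1.86-fold.

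MIR210HG, on chromosome 11, hosts miR-210, the microRNA best known for its induction by low oxygen. Its value was 0.32, 0.37 and 0.13 in the SDC1 siRNA arrays, against -0.32, -0.48 and -0.38 in the control siRNA arrays. There was no overlap, and the rise of 0.67 ± 0.08 on the log2 scale (SE, n = 3 each; limma, adjusted p = 0.00037) corresponds to 1.59-fold. The RefSeq promoter of this gene is printed because miR-210 is a textbook target of hypoxia-inducible factors. The core motif of these factors has the forms ACGTG and GCGTG. The promoter lies at chr11:568408-568707 (GRCh38.p14, minus strand), covers 250 bases before the start site to 50 after it and has a GC content of 80%. The sequence runs as follows, with the match to ACGTG in capitals.
MIR210HG promoter: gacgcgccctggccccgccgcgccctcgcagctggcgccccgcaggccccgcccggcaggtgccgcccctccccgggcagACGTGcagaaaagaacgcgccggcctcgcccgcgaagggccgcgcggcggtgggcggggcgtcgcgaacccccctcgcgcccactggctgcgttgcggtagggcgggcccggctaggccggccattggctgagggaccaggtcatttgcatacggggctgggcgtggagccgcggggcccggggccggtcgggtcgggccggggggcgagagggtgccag
The form GCGTG was not searched, so its occurrences are neither marked nor counted. Searching ACGTG and its reverse complement CACGT on this stretch gave 1 match, 170 bases before the start site. The same letters occur in 21.6% of 27305 RefSeq promoters of this length and in 23.4% of the 1205 promoters found for the noncoding genes, so the match only describes the sequence.

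MIR4307HG rose by 0.27 ± 0.08 (SE; limma, adjusted p = 0.033). Its value was 0.15, 0.13 and 0.03 in the SDC1 siRNA arrays, against -0.03, -0.18 and -0.29 in the control siRNA arrays. SDC1 siRNA replicate 3 and control siRNA replicate 1 were again the closest arrays. The adjusted p was 0.086 without control siRNA replicate 2, 0.099 without control siRNA replicate 3, 0.10 without SDC1 siRNA replicate 1 and 0.095 without SDC1 siRNA replicate 2.

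MIR924HG fell, with -0.39, -0.27 and -0.13 in the SDC1 siRNA arrays, against 0.28, 0.13 and 0.26 in the control siRNA arrays. The log2 fold change was -0.48 ± 0.08 (SE, n = 3 each; limma, adjusted p = 0.0025), with no overlap. MIR550A3HG fell by 0.37 on the log2 scale (SE 0.07; limma, adjusted p = 0.0036). Its arrays stood at -0.11, -0.20 and -0.25 after SDC1 siRNA, against 0.21, 0.24 and 0.11 after control siRNA.

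The 25 hosts that did not pass had log2 fold changes between -0.27 and 0.22. They include hosts of microRNAs much studied in breast cancer. MIR100HG, which holds miR-100 and a let-7 microRNA, was at -0.27 ± 0.09 (SE; limma, adjusted p = 0.054), and its arrays did not overlap. MIR17HG, the host of a growth-promoting cluster, was at -0.15 ± 0.09, MIR31HG at 0.22 ± 0.12 and MIR200CHG, which holds the epithelial miR-200c, at 0.09 ± 0.18. The let-7 seed GAGGUAG stood in 4 hosts, MIR100HG, MIR99AHG, MIRLET7BHG and MIR4500HG, and none of the 4 passed. A host that fell, MIR550A3HG, and a host that did not pass, MIR200CHG, hold microRNAs with a seed in common, GUCUUAC. The sequences below show both shared seeds, in capitals.
hsa-let-7a-5p: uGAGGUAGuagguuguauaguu
hsa-let-7c-5p: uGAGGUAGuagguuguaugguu
hsa-miR-4500: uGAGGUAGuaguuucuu
hsa-miR-200c-5p: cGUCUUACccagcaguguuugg

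**Figure D3:**
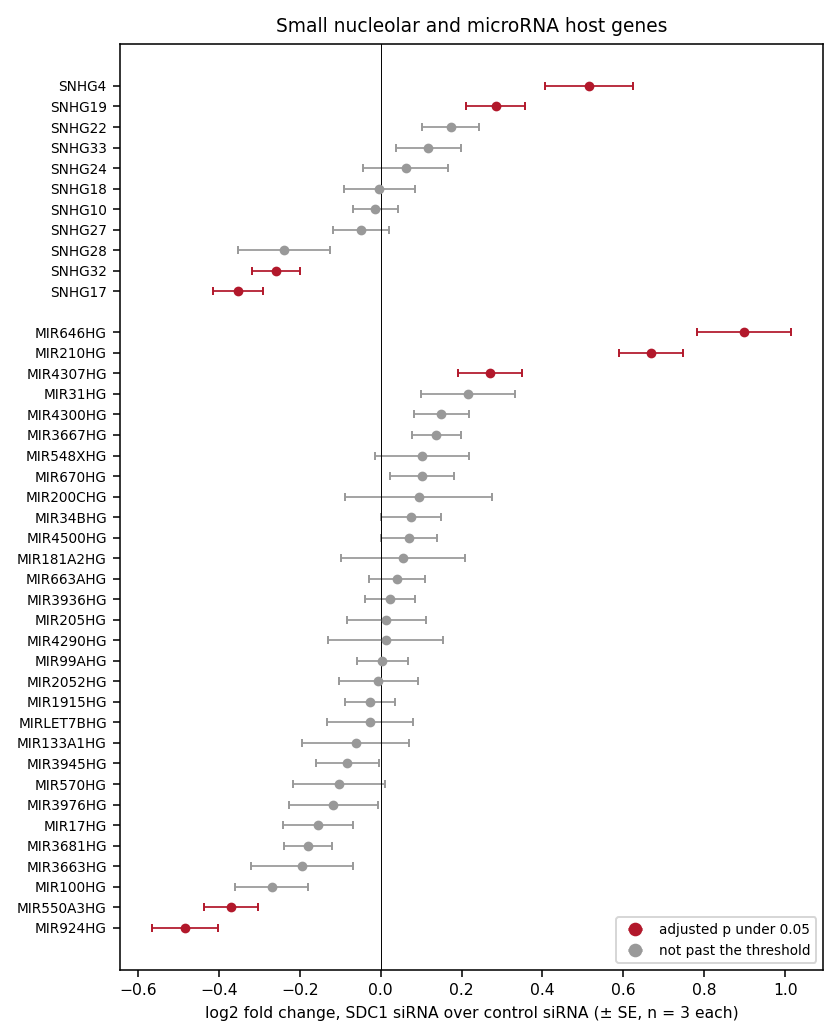
Log2 fold change, SDC1 siRNA over control siRNA, with its standard error (horizontal axis) for the 11 small nucleolar RNA host genes and the 30 microRNA host genes (3 arrays per group). Genes past an adjusted p of 0.05 are in red, and they lie on both sides of 0 in both families.

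Of the 840 LINC genes, 65 (7.74%) passed, against 28.1% of all genes, 30 higher and 35 lower. At least 2-fold changes were 7 falls and 1 rise, and over all genes 225 falls and 136 rises. The largest fall was that of LINC02535, on chromosome 6, with -0.87, -0.66 and -0.86 in the SDC1 siRNA arrays, against 0.66, 0.66 and 0.87 in the control siRNA arrays. The log2 fold change was -1.52 ± 0.09 (SE, n = 3 each; limma, adjusted p = 8.99e-06), or 2.87-fold lower. The measured coding gene nearest to it in RefSeq, NT5E, which encodes the ectonucleotidase CD73, was lower by less (log2 fold change -0.25; limma, adjusted p = 0.018).

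LINC01094, on chromosome 4, stood at -0.88, -0.56 and -0.56 in the SDC1 siRNA arrays, against 0.80, 0.56 and 0.86 in the control siRNA arrays. Its groups were far apart, and the log2 fold change was -1.40 ± 0.11 (SE, n = 3 each; limma, adjusted p = 4.81e-05). Its nearest measured coding gene, ANXA3, which encodes the membrane-binding protein annexin A3, fell as well, with a log2 fold change of -1.52 (limma, adjusted p = 2.00e-06). Among the LINC genes named here it is the only one whose neighbour changed by 2-fold or more.

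LINC00326, on chromosome 6, had -1.19, -0.48 and -0.95 in the SDC1 siRNA arrays, against 0.70, 0.65 and 0.48 in the control siRNA arrays. The drop was -1.48 ± 0.16 on the log2 scale (SE; limma, adjusted p = 0.00023). Its neighbour EYA4, a transcriptional cofactor and phosphatase, was at -0.35 (limma, adjusted p = 0.0054). LINC00996, beside the immune GTPase gene GIMAP8 on chromosome 7, varied most between replicates, with -0.83, -1.41 and -0.35 after SDC1 siRNA, against 0.57, 0.73 and 0.35 after control siRNA. It fell by 1.42 on the log2 scale (SE 0.23; limma, adjusted p = 0.0020), while GIMAP8 was at -0.02 and did not pass.

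The next 3 falls passed the limma threshold, with log2 fold changes of -1.25 ± 0.08 for LINC00294, -1.18 ± 0.13 for LINC00911 and -1.17 ± 0.12 for LINC01537 (SE, n = 3 each). Of their neighbours, PDE2A, a cyclic nucleotide phosphodiesterase beside LINC01537, was lower (-0.33; limma, adjusted p = 0.0078). FLRT2, an adhesion protein gene beside LINC00911, did not pass at 0.08. The eighth fall, LINC00960 (-0.70 ± 0.07), depends on which of its 3 probe sets are read. With all 3 averaged it was -0.07 (limma, adjusted p = 0.60), and with the brightness class taken from all 6 arrays -0.21 (limma, adjusted p = 0.068).

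The largest rise among LINC genes was that of LINC01111, on chromosome 8. It was tight in both groups, with 0.69, 0.57 and 0.63 in the SDC1 siRNA arrays, against -0.59, -0.63 and -0.57 in the control siRNA arrays. The log2 fold change was 1.23 ± 0.06 (SE, n = 3 each; limma, adjusted p = 4.27e-06), or 2.34-fold. Its neighbour ZFHX4, a zinc finger homeobox gene, was higher by 0.27 (limma, adjusted p = 0.034).

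LINC00632 followed, with 0.21, 0.46 and 0.91 in the SDC1 siRNA arrays, against -0.21, -0.30 and -0.62 in the control siRNA arrays. Its replicates were spread more widely, and the log2 fold change was 0.90 ± 0.17 (SE; limma, adjusted p = 0.0049). LINC00472 rose by 0.87 ± 0.13, LINC00261 by 0.76 ± 0.09 and LINC00702 by 0.70 ± 0.11 (SE, n = 3 each), also past the limma threshold. LINC00702 and its neighbour KLF6, a zinc finger transcription factor gene, moved in opposite directions, since KLF6 was at -0.66 (limma, adjusted p = 7.13e-05). FOXA2, an endoderm transcription factor gene beside LINC00261, was at 0.17 and did not pass. LINC01224 (0.60), LINC01527 (0.57) and LINC01931 (0.43) completed the 8 largest rises.

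The other 49 LINC genes past the threshold were 22 higher, by 0.19 to 0.39 on the log2 scale, and 27 lower, between -0.63 and -0.19. Over all 65 LINC genes that passed, the nearest measured coding gene also passed for 30 (46.2%), in the same direction for 18 and in the opposite direction for the rest. Next to the 766 LINC genes that did not pass and have a position in the table, 252 nearest coding genes passed (32.9%). For comparison, 28.1% of all genes passed, and 29.7% of the genes other than the noncoding genes described here. The share beside LINC genes that did not pass was thus near that of genes in general, and the share beside those that passed was higher. The differences between these shares were not tested.

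**Figure D4:**
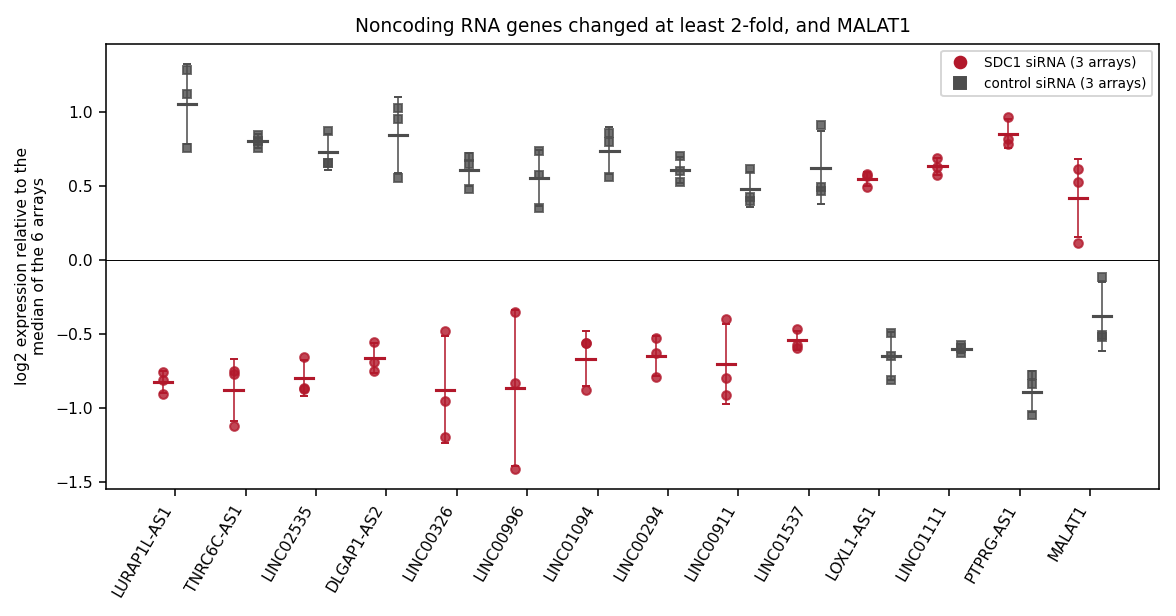
Log2 expression relative to the median of the 6 arrays (vertical axis) for the 13 noncoding RNA genes that changed at least 2-fold and for MALAT1 (horizontal axis), with 1 point per array, the mean as a bar and the standard deviation as whiskers, for SDC1 siRNA (circles) and control siRNA (squares). The arrays of the groups do not overlap for any gene shown, and 10 of the 13 are lower after SDC1 siRNA.

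Of the 781 antisense genes, 98 (12.5%) passed, against 28.1% of all genes, 51 higher and 47 lower. Among noncoding genes past the threshold, they held the largest change in either direction. LURAP1L-AS1, on chromosome 9, fell most, with -0.81, -0.76 and -0.91 in the SDC1 siRNA arrays, against 1.12, 1.28 and 0.76 in the control siRNA arrays. The log2 fold change was -1.88 ± 0.12 (SE, n = 3 each; limma, adjusted p = 1.87e-05), or 3.67-fold lower. LURAP1L, the coding gene it is named for, was at -0.05 ± 0.06 and did not pass.

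PTPRG-AS1, on chromosome 3, rose most. It stood at 0.81, 0.78 and 0.96 in the SDC1 siRNA arrays, against -0.78, -1.04 and -0.84 in the control siRNA arrays. The groups lay far apart, with a log2 fold change of 1.74 ± 0.09 (SE, n = 3 each; limma, adjusted p = 4.65e-06), or 3.34-fold. PTPRG, a receptor tyrosine phosphatase gene on the other strand, was at -0.21 ± 0.09 (limma, adjusted p = 0.12). The probe sequences were not used here, so which strand a probe set reads was not checked, and signal from an antisense gene and from its partner cannot be told apart where they overlap.

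TNRC6C-AS1 fell by 1.68 on the log2 scale, with -0.77, -0.75 and -1.12 in the SDC1 siRNA arrays, against 0.80, 0.84 and 0.75 in the control siRNA arrays (SE 0.10; limma, adjusted p = 1.08e-05). Its size depends on the probe sets read, and with the _x_at probe sets included it was -0.92. TNRC6C, a partner of Argonaute in microRNA silencing, was at -0.03 and did not pass. LOXL1-AS1 rose together with LOXL1, a lysyl oxidase that crosslinks elastin. The antisense gene stood at 0.58, 0.49 and 0.57 in the SDC1 siRNA arrays, against -0.49, -0.81 and -0.64 in the control siRNA arrays. The rise was 1.19 ± 0.09 for LOXL1-AS1 (SE; limma, adjusted p = 2.92e-05) and 1.08 ± 0.09 for LOXL1 (SE; limma, adjusted p = 7.05e-05).

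THAP9-AS1 had the tightest replicates of the named antisense genes, with 0.45, 0.45 and 0.48 in the SDC1 siRNA arrays, against -0.45, -0.53 and -0.49 in the control siRNA arrays. It rose by 0.95 ± 0.06 (SE; limma, adjusted p = 9.96e-06), while THAP9, a gene derived from a transposase, was at -0.09 and did not pass. PPM1F-AS1 and PPM1F, a serine/threonine phosphatase gene, moved apart. The antisense gene stood at -0.35, -0.32 and -0.36 in the SDC1 siRNA arrays, against 0.38, 0.53 and 0.32 in the control siRNA arrays. PPM1F-AS1 fell by 0.76 ± 0.07 and PPM1F rose by 0.75 ± 0.07 on the log2 scale (SE, n = 3 each; both past the limma threshold).

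Several antisense genes can lie at the same locus. The symbols gave 27 stems, single coding genes or gene clusters such as HOXA, that had 2 or more measured antisense genes. These held 58 antisense genes, of which 7 passed, where 12.5% of all antisense genes and 28.1% of all genes passed. DLGAP1, which encodes a scaffold protein of synapses, accounted for 3 of the 7. DLGAP1-AS2 fell by 1.50 ± 0.12 and DLGAP1-AS6 by 0.73 ± 0.08 on the log2 scale (SE, n = 3 each). DLGAP1-AS1, named after its value was seen, fell by 0.47 ± 0.06, and DLGAP1-AS3 was at 0.10 and did not pass. DLGAP1 itself was not analysed here. Falls also came from TLR8-AS1 (-0.86), LIPT2-AS1 (-0.79) and FAM131B-AS2 (-0.73), and rises from CLN8-AS1 (0.82), FOXP4-AS1 (0.73), HHIP-AS1 (0.70), PRRT3-AS1 (0.68) and EP300-AS1 (0.67). Of the coding partners measured for these, TLR8, FAM131B, CLN8, FOXP4, PRRT3 and EP300 did not pass, and HHIP, which encodes a protein that binds hedgehog ligands, rose by 0.40. The other 82 antisense genes past the threshold were 43 higher, by 0.19 to 0.57, and 39 lower, between -0.72 and -0.20.

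Antisense genes could be set beside their partner, the measured gene they are named for, in 715 pairs. Not every partner is a coding gene, since GAS5-AS1 is paired with GAS5. The antisense gene passed in 88 pairs (12.3%), the partner in 236 (33.0%) and both in 33, where 28.1% of all genes passed. A partner with several antisense genes, such as FOXN3, is counted in each of its pairs. Of these 33 pairs, 12 were higher together, 9 lower together and 12 moved in opposite directions. The antisense gene passed in 14.0% of pairs whose partner passed and in 11.5% of the 479 pairs whose partner did not. Over all 715 pairs, 380 (53.1%) had the same sign. In most pairs with a changed antisense gene, 55 of 88, the partner did not pass.

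Some of the pairs in which both genes passed, named here after their values were seen, involve well-known genes. ITGB2-AS1 (-0.63 ± 0.09) and ITGB2 (-1.44 ± 0.07), the integrin beta chain of leukocytes, were both lower. HECW2-AS1 (-0.72 ± 0.16) and HECW2 (-0.84 ± 0.07), a ubiquitin ligase gene, were lower as well. HSD11B1-AS1 rose by 0.54 ± 0.06 where HSD11B1, the enzyme that regenerates cortisol, was at -1.04 ± 0.12. WARS2-AS1 (-0.69 ± 0.09) and WARS2 (0.59 ± 0.07), a mitochondrial tRNA synthetase gene, also had opposite signs, and with the brightness class taken from all 6 arrays WARS2-AS1 was at -1.39. NR2F1-AS1 (-0.20 ± 0.06) and NR2F1 (1.07 ± 0.09), an orphan nuclear receptor gene, had opposite signs too, but this depends on the probe set read. The gene value of NR2F1-AS1 rests on the brightest of 3 probe sets, which did not pass in the fit over probe sets (-0.20; limma, adjusted p = 0.085). The other 2 rose, by 1.07 and 0.85, and with all 3 averaged NR2F1-AS1 was at 0.57 (limma, adjusted p = 0.00025). Leaving out any one array, its adjusted p lay between 0.058 and 0.11. ITGB2 is typical of blood cells, whose markers were not bright here. Of the 3 measured, CD14 was lower (-0.46; limma, adjusted p = 0.0027), and PTPRC (0.20) and CD3E (0.31) did not pass. Their part in the result was not tested.

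**Figure D5:**
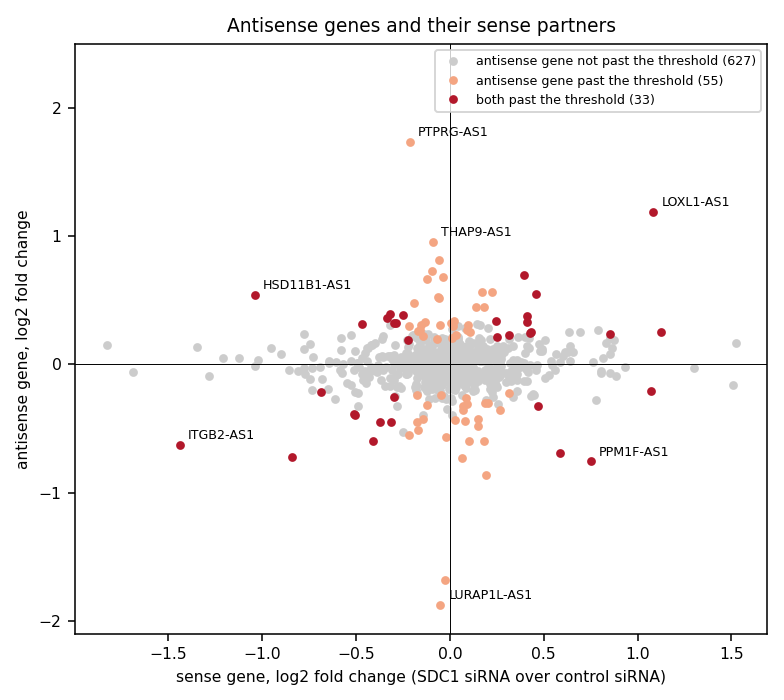
Log2 fold change, SDC1 siRNA over control siRNA, of each antisense gene (vertical axis) against that of the gene it is named for, its partner (horizontal axis), for 715 pairs. The 33 pairs in which both genes passed lie in all 4 quadrants, and the antisense genes with the largest fall and rise, LURAP1L-AS1 and PTPRG-AS1, have partners at -0.05 and -0.21, while LOXL1-AS1 has its partner at 1.08.

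The distance between the start sites of the partners was known from RefSeq for most pairs. In 156 pairs the start sites on opposite strands lay within 1000 bases of each other. The antisense gene passed in 27 of them (17.3%) and the partner in 54 (34.6%), where 28.1% of all genes passed. Both genes passed in 12, 7 of these in the same direction and 5 in opposite directions. Among 313 pairs with start sites farther apart, the antisense gene passed in 37 (11.8%) and the partner in 97 (31.0%). Both genes passed in 13 of these pairs, 9 of them in the same direction. The differences between close and distant pairs were not tested. Another 245 pairs could not be placed and 1 lay on the same strand. Pairs with close start sites therefore showed changes in the same and in opposite directions, as the other pairs did.

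The promoters of 4 such pairs are printed because both genes passed and both start sites lie inside the promoter window given by RefSeq. PRKAG2-AS1 (0.40) and PRKAG2 (-0.32), which had opposite signs, start 73 bases apart, outside that window. With the brightness class taken from all 6 arrays PRKAG2-AS1 did not pass (0.17; limma, adjusted p = 0.15). Each runs 5′ to 3′ on the strand of the antisense gene and covers 250 bases before its start site to 50 after it, from RefSeq (GRCh38.p14), and the bases between both start sites are in capitals. HHIP-AS1 (chr4:144645970-144646269, minus strand) and HHIP start 137 bases apart, POT1-AS1 (chr7:124929623-124929922, plus strand) and POT1, which encodes a telomere end-binding protein, 48 bases apart, and ZBED5-AS1 (chr11:10857967-10858266, plus strand) and ZBED5 164 bases apart. DMTF1-AS1 (chr7:87152444-87152743, minus strand) and DMTF1, a Myb-like transcription factor gene, overlap by 40 bases at their starts.
HHIP-AS1: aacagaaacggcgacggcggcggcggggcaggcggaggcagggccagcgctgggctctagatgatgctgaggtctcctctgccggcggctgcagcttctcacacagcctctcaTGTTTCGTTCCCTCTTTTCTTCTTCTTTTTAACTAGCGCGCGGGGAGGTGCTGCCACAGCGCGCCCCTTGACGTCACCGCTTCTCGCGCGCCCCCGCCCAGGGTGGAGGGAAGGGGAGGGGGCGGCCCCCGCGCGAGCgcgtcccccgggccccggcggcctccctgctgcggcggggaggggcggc
POT1-AS1: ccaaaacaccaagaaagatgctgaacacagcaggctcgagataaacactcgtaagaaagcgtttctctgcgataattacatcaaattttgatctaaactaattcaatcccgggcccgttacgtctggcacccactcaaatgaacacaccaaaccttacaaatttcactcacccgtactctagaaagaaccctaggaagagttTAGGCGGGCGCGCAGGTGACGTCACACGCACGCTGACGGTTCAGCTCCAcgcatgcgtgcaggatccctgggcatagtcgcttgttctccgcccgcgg
ZBED5-AS1: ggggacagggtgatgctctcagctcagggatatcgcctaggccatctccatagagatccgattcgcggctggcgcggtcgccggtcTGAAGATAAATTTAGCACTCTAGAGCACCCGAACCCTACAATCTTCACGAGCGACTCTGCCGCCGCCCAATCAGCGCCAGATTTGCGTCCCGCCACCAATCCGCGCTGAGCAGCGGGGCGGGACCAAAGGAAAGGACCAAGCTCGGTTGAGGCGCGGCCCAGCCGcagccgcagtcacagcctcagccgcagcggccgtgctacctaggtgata
DMTF1-AS1: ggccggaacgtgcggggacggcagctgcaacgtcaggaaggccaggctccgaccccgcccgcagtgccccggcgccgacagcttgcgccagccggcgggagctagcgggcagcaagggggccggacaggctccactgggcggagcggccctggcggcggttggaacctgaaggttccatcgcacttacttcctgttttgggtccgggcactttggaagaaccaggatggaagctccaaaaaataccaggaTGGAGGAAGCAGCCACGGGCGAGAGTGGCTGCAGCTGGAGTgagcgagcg
HHIP-AS1 and HHIP were both higher (0.70 and 0.40 on the log2 scale), as were ZBED5-AS1 and ZBED5 (0.24 and 0.85). POT1-AS1 and POT1 were both lower (-0.60 and -0.41). DMTF1-AS1 was higher and DMTF1 lower (0.36 and -0.34). The calls of ZBED5-AS1 and DMTF1-AS1 rest on single arrays. The adjusted p of ZBED5-AS1 was 0.054 without control siRNA replicate 2, 0.059 without control siRNA replicate 3, 0.081 without SDC1 siRNA replicate 1 and 0.060 without SDC1 siRNA replicate 2. That of DMTF1-AS1 was 0.075 without SDC1 siRNA replicate 1 and 0.053 without SDC1 siRNA replicate 3.

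A RefSeq promoter was found for 1205 of the noncoding genes. Their median GC content was 53.7%, against 58.3% over all 27305 promoters, and their median count of CpG pairs per promoter was 7, against 14. The 141 promoters of genes that passed had a median GC content of 58.7% and 17 CpG pairs, and the 1064 of genes that did not pass had 53% and 7. The promoters of the noncoding genes past the threshold were thus closer in base composition to those of all genes than the promoters of the genes that did not pass. This difference was not tested. The same split was not made for the other genes, and the kind and brightness of the noncoding genes were not taken into account.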

How the data were processed

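The authors deposited log2 values of 54675 probe sets on 6 Affymetrix arrays, 1 per culture. The submitters' processing notes name RMA (robust multi-array average) with no version, and give no further step. Every probe set had a median of 0 over the arrays, so levels are lost and differences are kept. The centring and the base of the logarithm were read from the values. No 2 arrays held identical values, and array medians lay between -0.0105 and 0.0077.

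No test used the 62 control probe sets. The array annotation gives 41097 probe sets a single gene, 1801 several and 11777 none, and only the first kind was named. The step between possible values, read from the 3 arrays not below the median and ignoring values under 0.001, gave each probe set a brightness class (log2 level 2 to 4, 4 to 8 or 8 to 16). Of the brightest class, 16.1% had a coarser step than that level would leave, so the class can be too bright. A gene was represented by its brightest class, averaging the single-gene probe sets there, with _x_at probe sets only where it has no other.

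The difference, SDC1 siRNA minus control siRNA, was fitted for 19775 genes by limma's lmFit and eBayes (version 3.58.1, R 4.3.3) without covariates, 2-sided, adjusting over all genes by Benjamini-Hochberg at 0.05, after a test on simulated data. All adjusted p-values are limma's. The median standard error was 0.0745 and the number of arrays limits the precision.

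The genes described and the lists were chosen with earlier results of these data known. Named are MALAT1, GAS5, every SNHG and microRNA host gene, the 8 largest rises and 8 largest falls of LINC and antisense genes whose groups did not overlap, their partners, SDC1 and up to 4 genes per list by lowest p. Some genes with a matching symbol are not reported here. Biotypes, start sites, neighbours and sequences are from RefSeq (GRCh38.p14), matched by gene identifier, and the array annotation names none.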

Additional observations from a re-analysis of the deposited data

How the results depend on the processing

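Under 9 other settings for probe sets, brightness, prior, blocks and scaling, between 70 and 93 noncoding genes were higher and between 81 and 91 lower, against 87 and 86. Between 9.19% and 13.9% of the noncoding genes passed, against 26.4% to 32.9% of all genes. The 70 and the 13.9% came with the dimmest class left out, where only 1090 noncoding genes were tested. Leaving out each array in turn gave 61 to 80 higher and 62 to 84 lower genes. The share that passed was then 7.39% to 9.86%, against 22.6% to 25.5% of all genes. The median log2 fold change of the noncoding genes lay between 0.00094 and 0.014 under the other settings. It lay between -0.0098 and 0.021 when single arrays were left out, the lowest without control siRNA replicate 1, where the median of all genes was -0.0070, and the cause was not tested. Same-numbered arrays correlated between -0.0085 and 0.0914 in their deviations from the group means. Arrays with different numbers were not compared in this way, so whether the replicate numbers pair the samples is not known. With the replicate block 87 noncoding genes were higher and 89 lower (10.6%, against 27.5% of all genes). Blocking on the spike-in batch gave 76 and 82 (9.5%, against 26.4%).

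Of 86 noncoding genes named, 75 by the rule and 11 after their values were seen, 52 passed, and 45 of these did so under each of the 15 settings in which they were tested (genes of the dimmest class drop out of 1). LINC00960, MIR4307HG, SNHG19, NR2F1-AS1, ZBED5-AS1, DMTF1-AS1 and PRKAG2-AS1 did not. MIR4307HG also had an adjusted p of 0.050 with a robust prior. Of the 34 that did not pass, MIR100HG, MIR3681HG and MIR3663HG passed under at least 1 setting. The direction changed only for NR2F1-AS1, to 0.57 with all its probe sets averaged, against -0.20. CLN8-AS1 was at 0.39 with all its probe sets averaged, against 0.82. The brightness class is too coarse to show whether a gene is detected, and a gene that did not pass may still have changed by less than these arrays resolve.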
